A study of Mus musculus with 9 samples.

Results

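The genes described here are 37 markers of macrophages, read in cultures of mouse embryonic fibroblasts. They are the rows of the deposited count table whose gene symbol is on a list of macrophage markers, and all 37 are among its 24062 genes. The cells, of the C57BL/6 strain, carried a lentivirus for p21 overexpression (3 libraries), one for p16 overexpression (3 libraries) or the empty vector as control (3 libraries). RNA was taken at day 10, and the labels call all 3 groups senescent, the empty vector control included. The sample titles, however, call only the p21 and p16 libraries senescent and the empty vector libraries control. By its title, the study asked how proteins secreted under p21 expose stressed cells to the immune system. The labels name no promoter for the transgenes and no sort or gate on the cells. They do not tell whether the replicates were grown apart, though replicate 3 of every group stood apart in Xist, as given below. A p-value here covers the variation of 9 libraries, of which part may be technical.

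Macrophages are phagocytes of the innate immune system. They depend on the growth factor receptor CSF1R and on the transcription factor PU.1, encoded by Spi1. They take up opsonised material through Fc receptors, whose common gamma chain is encoded by Fcer1g, and debris through scavenger receptors. Tyrobp encodes DAP12, the adaptor through which the receptor TREM2 signals. Tissue macrophages are also a main source of C1q, the first component of the classical complement pathway. p21 (Cdkn1a) and p16 (Cdkn2a) are inhibitors of the kinases that drive the cell cycle, and high levels of either can bring on senescence, a lasting arrest.

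Library totals ran from 56864342 to 76054820 counts. Levels are given in CPM, a gene's count scaled to its library's total after TMM adjustment, and changes are those of edgeR's quasi-likelihood test over 14572 genes with Benjamini-Hochberg adjustment. Calls are at an adjusted p under 0.05. Cdkn1a averaged 1130 ± 76.5 CPM in p21 cells and 366 ± 43.6 CPM in control cells, and Cdkn2a 1017 ± 64.6 CPM in p16 cells and 63.1 ± 5.03 CPM in control cells (SD, n = 3 each). Fibroblast markers were abundant in all groups: 15 of them, Col1a1 and Vim among them, summed to 54220 ± 2030 CPM in p21, 51310 ± 3785 CPM in p16 and 45320 ± 8293 CPM in control cells. In p21 against control cells 2 of the 15 were higher (Fn1 and Thy1) and 4 lower (Twist1, Pdgfra, Prrx1 and Twist2), or 1 to 3 higher and 2 to 4 lower when 1 library was left out. Of all genes tested, 19.3% were higher and 20.7% lower in that comparison. The higher count was 1 without control replicate 2, p21 replicate 1 or p21 replicate 3, and the lower count 2 without control replicate 2 or p21 replicate 2. The p16 libraries carry fewer labels than the others, and a difference in their preparation cannot be told apart from p16 itself. Replicate 3 of every group stood apart in sex-linked transcripts, with Xist at 158, 262 and 397 CPM in replicate 3 of the p21, p16 and control groups and at most 1.34 CPM elsewhere. Low counts were mostly even: among values from 1 to 10, between 69.6% and 71.3% in each library were even numbers, against 47.6% to 51.5% among values from 51 to 200. Whether both reads of a pair were counted is not given in the sources used here; if they were, a low count stands for fewer fragments than its value. With all counts halved and rounded up, 19 of the macrophage markers were called for p21 over control.

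Against the fibroblast genes the macrophage markers were rare. All 37 together summed to 67.0, 73.4 and 89.8 CPM in the p21 libraries, 28.2, 28.3 and 32.3 CPM in the p16 libraries and 25.9, 27.2 and 27.2 CPM in the control libraries. The 3 p21 libraries lay above all others, and the p16 and control libraries lay close together. Gpnmb and Lyz2 made up much of this, so the sum of the other 35 was also taken: 25.7, 34.3 and 47.8 CPM in p21, 13.2, 14.01 and 18 CPM in p16 and 15.9, 18.1 and 18.4 CPM in control libraries. Its mean was 2.06 times as high in p21 as in control cells and 0.863 times as high in p16 as in control cells. In bulk RNA, more cells of a type and more of its RNA per cell cannot be told apart.

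**Figure D1:**
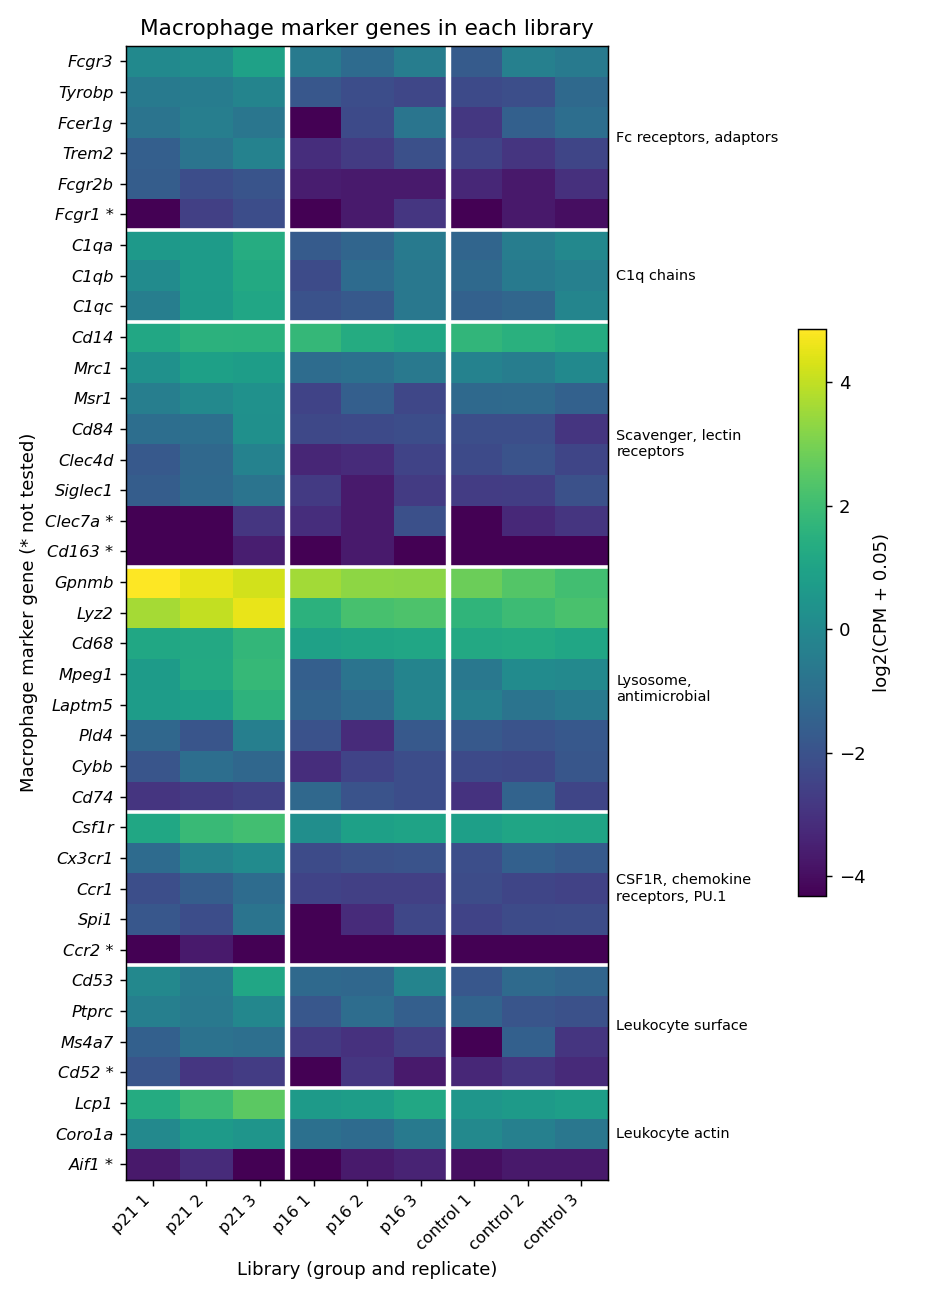
Level of each of the 37 macrophage marker genes (rows, ordered by role) in each of the 9 libraries (columns), coloured by log2(CPM + 0.05). An asterisk marks the 6 genes that had too few counts to be tested; most rows are brightest in the 3 p21 columns, whereas Cd14 and Cd68 vary little between columns.

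Of the 37 genes, 31 had enough counts to be tested, and 21 of these were higher in p21 than in control cells, with none lower. Among all genes tested, 19.3% were called higher and 20.7% lower. Among the genes with a mean under 5 CPM, where 29 of the 31 lie, 14.6% were called higher. The median log2 fold change was 1.49 over the 31 and -0.01 over all genes tested. The filter on low counts could be passed through the p21 libraries alone, but 22 of the 31 passed it in all 3 control libraries as well, and 17 of those 22 were called. Fcgr2b, Trem2, Siglec1, Ms4a7 and Ccr1 passed it only because of the p21 libraries. Fcgr2b, Trem2 and Siglec1 are among the 21, and their calls over control and over p16 cells are a description. In p16 against control cells 1 of the 31 was higher (background 3.57%) and none lower (3.65%). In p21 against p16 cells 20 were higher (background 6.19%) and none lower (6.64%). None was lower by DESeq2 in any of the 3 comparisons either, and at an unadjusted p under 0.05 edgeR gave 0, 2 and 0 lower in that order. The comparisons with the empty vector share their control libraries.

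The start regions of a few of these genes show a sequence that PU.1 and other ETS factors are known to bind. RefSeq start regions (GRCm38.p6, 250 bases before to 50 after the start of transcription) matched 28 of the 37 symbols. The letters AGGAAGT were sought on both strands, as AGGAAGT or ACTTCCT. A match was found in at least 1 window of 8 of the 28 genes. Of the 34 windows of these genes, some of which overlap, as those of Ptprc do, 9 held one (26.5%), against 3072 of all 32851 windows (9.35%). A match is a description of the letters and not a site of binding. The 8 were Lyz2, C1qb, C1qc, Cd53, Mrc1 and Ptprc, called for p21 over control, Pld4, not called, and Fcgr1, not tested. Members called for p21 but not p16 over control that had no match include Laptm5, Mpeg1, Trem2, Cd84, Lcp1, Cx3cr1, Clec4d, Fcgr2b and Fcgr3. Whether a match goes with a call was not tested. Shown first are Lyz2, the most abundant member per length in p21 cells, a pair of genes of the C1q cluster and the tetraspanin gene Cd53, each with 1 match in capitals. Gpnmb, the member that was also higher in p16 cells, follows and has no match in its window. All read 5′ to 3′ along the gene.
Lyz2 (chr10:117282223-117282522, minus strand): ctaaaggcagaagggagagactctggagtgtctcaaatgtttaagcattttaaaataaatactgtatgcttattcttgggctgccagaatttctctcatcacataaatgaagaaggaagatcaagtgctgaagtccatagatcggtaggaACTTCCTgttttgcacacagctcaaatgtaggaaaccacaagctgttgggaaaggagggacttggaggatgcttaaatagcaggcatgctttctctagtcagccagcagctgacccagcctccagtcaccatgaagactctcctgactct
C1qb (chr4:136886151-136886450, minus strand): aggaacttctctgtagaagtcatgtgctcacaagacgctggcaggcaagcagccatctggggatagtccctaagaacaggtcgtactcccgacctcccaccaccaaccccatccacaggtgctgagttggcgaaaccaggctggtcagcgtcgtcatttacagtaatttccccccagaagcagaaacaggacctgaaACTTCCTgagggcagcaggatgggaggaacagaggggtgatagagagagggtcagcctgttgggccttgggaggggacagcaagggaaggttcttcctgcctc
C1qc (chr4:136892865-136893164, minus strand): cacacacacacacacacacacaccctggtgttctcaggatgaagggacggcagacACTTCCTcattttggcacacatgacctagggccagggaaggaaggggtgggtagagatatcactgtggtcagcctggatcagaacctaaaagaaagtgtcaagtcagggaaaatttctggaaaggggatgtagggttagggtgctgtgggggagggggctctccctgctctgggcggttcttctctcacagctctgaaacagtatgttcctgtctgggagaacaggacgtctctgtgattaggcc
Cd53 (chr3:106790100-106790399, minus strand): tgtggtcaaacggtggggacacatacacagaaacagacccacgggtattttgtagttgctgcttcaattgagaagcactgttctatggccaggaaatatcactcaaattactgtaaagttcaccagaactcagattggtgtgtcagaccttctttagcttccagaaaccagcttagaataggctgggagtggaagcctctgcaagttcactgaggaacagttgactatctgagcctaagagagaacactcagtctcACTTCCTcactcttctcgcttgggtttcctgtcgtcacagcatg
Gpnmb (chr6:49036268-49036567, plus strand): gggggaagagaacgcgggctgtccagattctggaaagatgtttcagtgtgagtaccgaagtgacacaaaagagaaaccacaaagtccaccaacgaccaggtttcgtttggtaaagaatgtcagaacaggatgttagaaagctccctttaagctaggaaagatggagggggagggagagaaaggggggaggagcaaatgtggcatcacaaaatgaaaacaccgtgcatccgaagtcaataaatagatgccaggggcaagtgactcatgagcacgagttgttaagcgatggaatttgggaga
The match began 100 bases before the start of transcription in Lyz2, 53 before it in C1qb, 195 before it in C1qc and 6 after it in Cd53.

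Genes of the lysosome and of microbial killing held the most abundant members, and 4 of 8 were higher in p21 than in control cells (background 19.3%). Lyz2, which encodes the lysozyme of macrophages (chromosome 10, 117277331 to 117282321, minus strand, GENCODE M21 on GRCm38), stood at 12.3, 16.3 and 23.3 CPM in p21 libraries, 2.97, 4.52 and 4.86 CPM in p16 libraries and 3.13, 3.87 and 4.64 CPM in control libraries. All p21 libraries lay above all others, while the p16 and control ranges overlapped. Lyz2 was 4.45-fold (log2 fold change 2.15 ± 0.26 SE, adjusted p = 0.000221) higher in p21 than in control cells and 4.19-fold (log2 fold change 2.07 ± 0.26 SE, adjusted p = 0.0017) higher than in p16 cells. Its neighbour Lyz1, another lysozyme gene, shares 15.4% of the 50-base words of Lyz2, so reads could be split between them. Lyz1 stood at 0.964, 1.33 and 2.22 CPM in p21 libraries, 0.246, 0.381 and 0.451 CPM in p16 libraries and 0.365, 0.316 and 0.404 CPM in control libraries, which is 0.0781 to 0.0956 of the Lyz2 count in p21, 0.0829 to 0.0928 in p16 and 0.0816 to 0.117 in control libraries.

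Gpnmb encodes a glycoprotein of lysosomes and melanosomes that macrophages make in quantity but that other cells also express (chromosome 6, 49036546 to 49070929, plus strand). It stood at 29, 22.7 and 18.7 CPM in p21 libraries, 12.1, 9.81 and 9.49 CPM in p16 libraries and 6.86, 5.29 and 4.17 CPM in control libraries. The groups did not overlap, and p16 cells lay between p21 and control cells. It was 4.32-fold (log2 fold change 2.11 ± 0.20 SE, adjusted p = 6.6e-05) higher in p21 and 1.92-fold (log2 fold change 0.94 ± 0.20 SE, adjusted p = 0.0256) higher in p16 than in control cells, and 2.25-fold (log2 fold change 1.17 ± 0.20 SE, adjusted p = 0.00617) higher in p21 than in p16 cells. It was the only member called in p16 cells, and that call was lost when control replicate 2 (adjusted p = 0.0828), control replicate 3 (0.0538), or p16 replicate 1 (0.0883), 2 (0.0763) or 3 (0.0522) was left out. Within each group its highest library was replicate 1 and its lowest replicate 3, the reverse of Lyz2, whose highest was replicate 3 and lowest replicate 1 in each group. The ratio of Gpnmb to Lyz2 counts ran from 0.804 to 2.35 in p21, 1.96 to 4.08 in p16 and 0.898 to 2.19 in control libraries.

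Mpeg1, which encodes the pore-forming protein perforin-2 of phagocytes, stood at 1.61, 2.32 and 3.52 CPM in p21 libraries, 0.295, 0.528 and 0.843 CPM in p16 libraries and 0.587, 1.02 and 0.948 CPM in control libraries. Laptm5, a lysosomal membrane protein of blood cells, stood at 1.62, 1.77 and 3.03 CPM in p21 libraries, 0.328, 0.425 and 0.858 CPM in p16 libraries and 0.73, 0.522 and 0.641 CPM in control libraries. For both genes the p21 libraries lay above all others, and the p16 and control ranges overlapped. Mpeg1 was 2.91-fold (log2 fold change 1.54 ± 0.39 SE, adjusted p = 0.0109) and Laptm5 3.37-fold (log2 fold change 1.75 ± 0.36 SE, adjusted p = 0.00427) higher in p21 than in control cells. Cd68, the lysosomal glycoprotein used as a macrophage stain, differed from these. It stood at 2.18, 2.29 and 3.36 CPM in p21 libraries, 1.84, 2.01 and 2.12 CPM in p16 libraries and 2.29, 2.39 and 2.13 CPM in control libraries, and the p21 and control ranges overlapped (1.15-fold (log2 fold change 0.19 ± 0.18 SE, adjusted p = 0.412)). Cybb, the catalytic subunit of the phagocyte NADPH oxidase (1.95-fold, adjusted p = 0.0886), and the phospholipase-like gene Pld4 (1.89-fold, adjusted p = 0.187) did not pass between p21 and control cells. Cd74, the invariant chain of MHC class II, stood at 0.0826, 0.102 and 0.123 CPM in p21 libraries, 0.377, 0.205 and 0.174 CPM in p16 libraries and 0.0782, 0.33 and 0.14 CPM in control libraries and did not pass either (log2 fold change -0.83 ± 0.59 SE, adjusted p = 0.291).

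**Figure D2:**
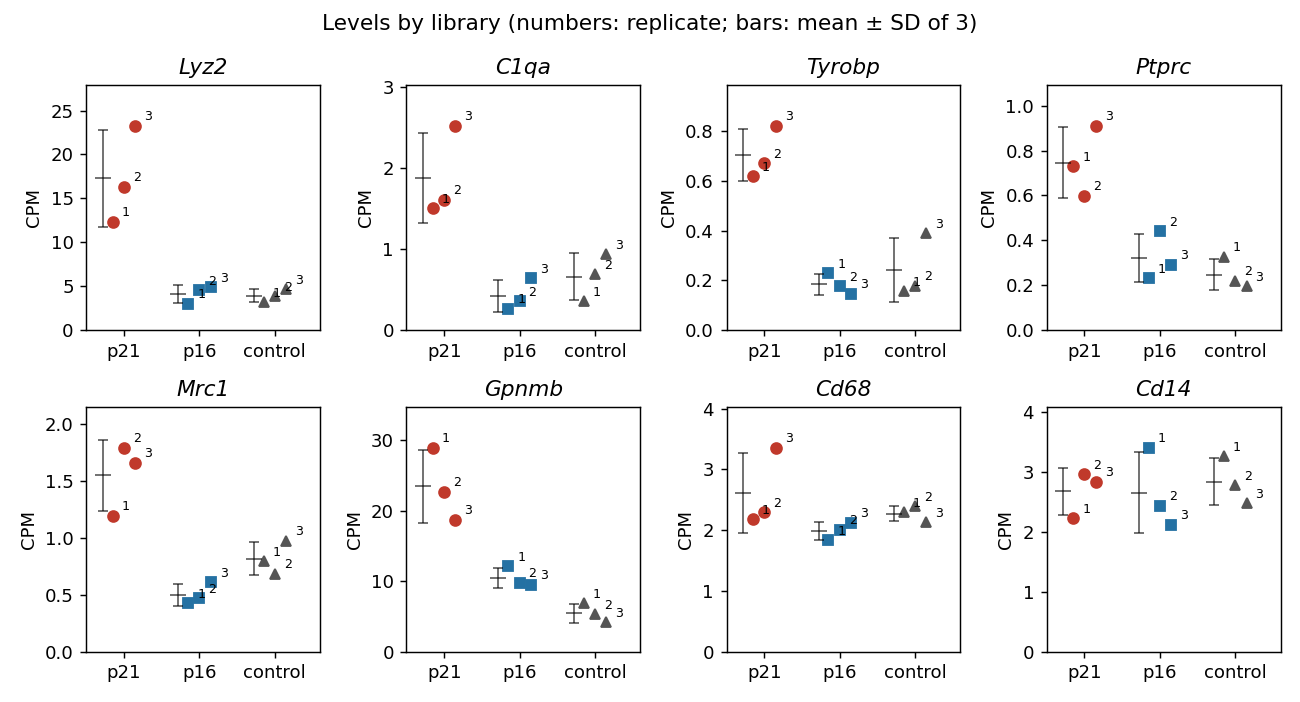
CPM of 8 members in each library, with the replicate number beside each point and the mean ± SD of 3 libraries as a bar. Lyz2, C1qa, Tyrobp, Ptprc, Mrc1 and Gpnmb are higher in every p21 library than in any other, while Cd68 and Cd14 overlap between p21 and control cells.

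The 3 C1q chains, which assemble into 1 molecule, lie next to each other on chromosome 4 (C1qb 136880129 to 136886187, C1qc 136889804 to 136893065 and C1qa 136895917 to 136898803, all minus strand). C1qa stood at 1.5, 1.61 and 2.52 CPM in p21 libraries, 0.262, 0.352 and 0.64 CPM in p16 libraries and 0.352, 0.687 and 0.934 CPM in control libraries. C1qb stood at 1.02, 1.61 and 2.35 CPM in p21 libraries, 0.164, 0.411 and 0.581 CPM in p16 libraries and 0.391, 0.618 and 0.753 CPM in control libraries. C1qc stood at 0.702, 1.53 and 2.12 CPM in p21 libraries, 0.197, 0.249 and 0.581 CPM in p16 libraries and 0.313, 0.357 and 0.865 CPM in control libraries. Every p21 library lay above every p16 library for each chain, and for C1qa and C1qb also above every control library, whereas p21 replicate 1 fell within the control range for C1qc. The fold over control cells was 2.85 for C1qa (log2 fold change 1.51 ± 0.40 SE, adjusted p = 0.0139), 2.81 for C1qb (adjusted p = 0.021) and 2.82 for C1qc (adjusted p = 0.0483). Against p16 cells it was 4.43, 4.23 and 4.17 (adjusted p = 0.0114, 0.0177 and 0.0407). The ratio of C1qb to C1qa counts ran from 0.679 to 1 in p21, 0.625 to 1.17 in p16 and 0.806 to 1.11 in control libraries. That of C1qc to C1qa ran from 0.468 to 0.955 in p21, 0.708 to 0.909 in p16 and 0.52 to 0.925 in control libraries. Both ranges overlapped between the groups. In all groups replicate 3 was the highest library for every chain. p16 cells lay at 0.652 of the control mean for the chains summed, but none of the chains passed between p16 and control cells (adjusted p = 0.409 to 0.612).

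Of 5 tested Fc receptors, adaptors and partners, 4 were higher in p21 than in control cells (background 19.3%). Trem2 and Fcgr2b are among the 4 and passed the filter on low counts only through the p21 libraries, so this count is a description. Tyrobp, which encodes the signalling adaptor DAP12, stood at 0.62, 0.672 and 0.823 CPM in p21 libraries, 0.23, 0.176 and 0.145 CPM in p16 libraries and 0.157, 0.179 and 0.391 CPM in control libraries. The p21 libraries lay above all others, and it was 2.9-fold (log2 fold change 1.54 ± 0.37 SE, adjusted p = 0.00883) higher than in control cells. Trem2, a lipid-sensing receptor that signals through DAP12, stood at 0.289, 0.526 and 0.788 CPM in p21 libraries, 0.0656, 0.103 and 0.189 CPM in p16 libraries and 0.13, 0.0824 and 0.14 CPM in control libraries. Its p21 libraries did not overlap with the others. Trem2 was over the filter on low counts in the 3 p21 libraries but in only 1 p16 and 1 control library. It could thus be tested only because it was high in p21 cells. Its fitted value for p21 over control, 4.45-fold (log2 fold change 2.15 ± 0.48 SE, adjusted p = 0.00629), is therefore a description. Fcer1g, the common gamma chain of Fc receptors, stood at 0.523, 0.716 and 0.56 CPM in p21 libraries, 0, 0.161 and 0.538 CPM in p16 libraries and 0.0913, 0.302 and 0.446 CPM in control libraries, with no read in p16 replicate 1. Its p21 libraries lay above the control libraries, but its libraries spread widely within the other groups and it did not pass (2.15-fold, adjusted p = 0.301).

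Fcgr2b, the inhibitory IgG receptor, stood at 0.275, 0.175 and 0.21 CPM in p21 libraries, 0.0328, 0.0293 and 0.0291 CPM in p16 libraries and 0.0522, 0.0275 and 0.0697 CPM in control libraries, that is 20, 12 and 12 counts in p21 libraries, 2 in each p16 library and 4, 2 and 5 in control libraries. It was over the filter on low counts in the 3 p21 libraries and in no other, so that it could be tested only because it was high there. Its fitted value for p21 over control, 4.32-fold (log2 fold change 2.11 ± 0.44 SE, adjusted p = 0.00434), is therefore a description. Fcgr3, an activating IgG receptor, stood at 0.964, 1.1 and 1.86 CPM in p21 libraries, 0.639, 0.411 and 0.698 CPM in p16 libraries and 0.261, 0.756 and 0.641 CPM in control libraries, and it was 2.35-fold higher in p21 than in control cells (adjusted p = 0.0349) but did not pass against p16 cells (adjusted p = 0.0916, or 0.0327 with the replicate block). These receptor genes lie on chromosome 1 (Fcgr2b 170958617 to 170976547, Fcgr3 171051174 to 171064935), and 9.58% of the 50-base words of Fcgr3 are also in Fcgr2b, so their counts are uncertain to that extent. Fcgr1, the high-affinity IgG receptor, had 0, 8 and 10 counts in p21, 0, 2 and 6 in p16 and 0, 2 and 1 in control libraries, too few to be tested.

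Of 6 tested receptors for debris, sugars and sialic acids, 5 rose in p21 against control cells (background 19.3%) and none in p16 against control cells (3.57%). Siglec1 is among the 5 and passed the filter on low counts only through the p21 libraries. Mrc1, the mannose receptor, stood at 1.2, 1.8 and 1.66 CPM in p21 libraries, 0.426, 0.469 and 0.611 CPM in p16 libraries and 0.795, 0.687 and 0.976 CPM in control libraries. The p21 libraries were the highest and the p16 libraries the lowest, with no overlap between any of the groups. Mrc1 was 1.89-fold (log2 fold change 0.92 ± 0.24 SE, adjusted p = 0.0122) higher in p21 than in control cells and 3.07-fold (log2 fold change 1.62 ± 0.25 SE, adjusted p = 0.00395) higher than in p16 cells, while the difference between p16 and control cells did not pass (log2 fold change -0.70 ± 0.25 SE, adjusted p = 0.122). Msr1, a scavenger receptor for modified lipoproteins, stood at 0.702, 0.95 and 1.19 CPM in p21 libraries, 0.131, 0.293 and 0.145 CPM in p16 libraries and 0.391, 0.398 and 0.307 CPM in control libraries. Its groups were ordered as those of Mrc1 without overlap, with a fold of 2.57 for p21 over control (adjusted p = 0.00912), 4.9 for p21 over p16 (adjusted p = 0.00429) and a log2 fold change of -0.93 ± 0.37 SE for p16 minus control (adjusted p = 0.161).

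Siglec1, a sialic acid-binding receptor of tissue macrophages, stood at 0.275, 0.394 and 0.525 CPM in p21 libraries, 0.0983, 0.0293 and 0.102 CPM in p16 libraries and 0.104, 0.11 and 0.195 CPM in control libraries. Clec4d, a C-type lectin for fungal glycolipids, stood at 0.248, 0.38 and 0.788 CPM in p21 libraries, 0.0492, 0.0587 and 0.131 CPM in p16 libraries and 0.157, 0.206 and 0.14 CPM in control libraries. Cd84, a self-binding receptor of leukocytes, stood at 0.454, 0.467 and 1.17 CPM in p21 libraries, 0.147, 0.161 and 0.174 CPM in p16 libraries and 0.183, 0.179 and 0.0837 CPM in control libraries. In these 3 genes every p21 library lay above every p16 and control library, and for Siglec1 and Clec4d every p16 library was below every control library. The fold over control cells was 2.88 for Siglec1 (adjusted p = 0.0214), 2.76 for Clec4d (adjusted p = 0.0376) and 4.6 for Cd84 (adjusted p = 0.00461). Siglec1 was over the filter on low counts in the 3 p21 libraries, 1 control library and no p16 library. It passed only through the p21 libraries, so its value is a description. Cd14, the co-receptor for bacterial lipopolysaccharide, stood at 2.23, 2.96 and 2.84 CPM in p21 libraries, 3.41, 2.44 and 2.12 CPM in p16 libraries and 3.26, 2.77 and 2.48 CPM in control libraries. Its groups overlapped and no comparison passed (adjusted p = 0.756, 0.813 and 0.977). The haemoglobin scavenger receptor gene Cd163 had 2 counts in p21 replicate 3, 2 in p16 replicate 2 and none elsewhere, and the beta-glucan receptor gene Clec7a reached at most 13 counts, so neither was tested.

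**Figure D3:**
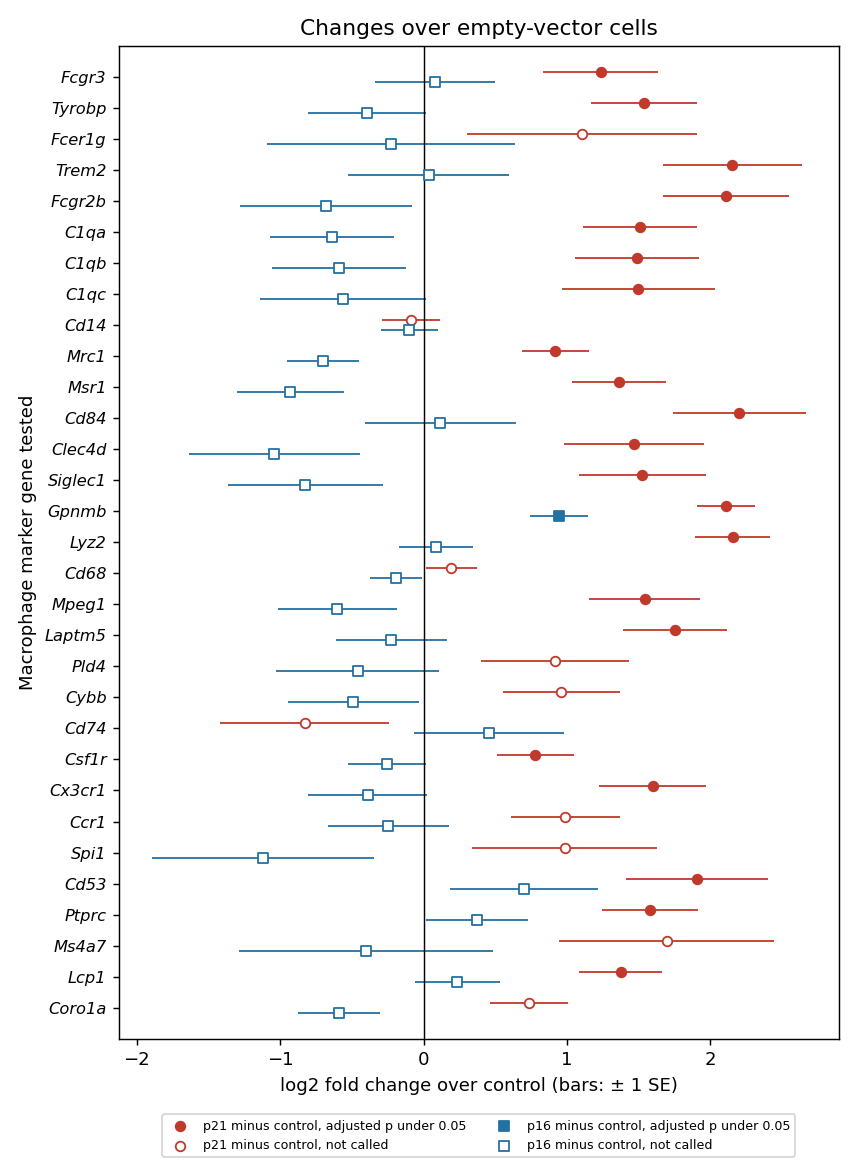
Log2 fold change over control cells of the 31 tested markers, with 1 SE to each side, for p21 cells (circles) and p16 cells (squares). Filled symbols have an adjusted p under 0.05, as 21 do for p21 and 1, Gpnmb, for p16.

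Of 4 tested genes for growth factor and chemokine receptors and PU.1, 2 were higher in p21 than in control cells (background 19.3%). Csf1r, the receptor for CSF1 and IL-34, stood at 2.16, 3.67 and 4.22 CPM in p21 libraries, 1.11, 1.79 and 1.98 CPM in p16 libraries and 1.75, 2.08 and 2.02 CPM in control libraries. The lowest p21 library lay just above the highest control library, and Csf1r was 1.72-fold (log2 fold change 0.78 ± 0.27 SE, adjusted p = 0.0429) higher in p21 than in control cells. Exons of the gene Hmgxb3 overlap those of Csf1r and hold 14.3% of its 50-base words, so part of its reads cannot be assigned. Cx3cr1, the fractalkine receptor, stood at 0.413, 0.818 and 1.01 CPM in p21 libraries, 0.164, 0.191 and 0.203 CPM in p16 libraries and 0.183, 0.302 and 0.251 CPM in control libraries, with the p21 libraries above all others, and was 3.02-fold (log2 fold change 1.60 ± 0.37 SE, adjusted p = 0.00742) higher in p21 than in control cells. Ccr1, a receptor for CC chemokines, was at 0.292 ± 0.121 CPM in p21, 0.122 ± 0.00827 CPM in p16 and 0.144 ± 0.0228 CPM in control cells (1.98-fold for p21 over control, adjusted p = 0.0644). Spi1 stood at 0.234, 0.175 and 0.525 CPM in p21 libraries, 0, 0.0587 and 0.145 CPM in p16 libraries and 0.13, 0.165 and 0.167 CPM in control libraries, with no read in p16 replicate 1, and did not pass in p21 against control cells (1.98-fold, adjusted p = 0.251) or against p16 cells (4.29-fold, adjusted p = 0.0894, or 0.0272 with the replicate block). Ccr2, the receptor of inflammatory monocytes for Ccl2, had 2 counts in p21 replicate 2 and none in any other library.

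Of 3 tested surface genes shared by leukocytes, 2 were higher in p21 than in control cells (background 19.3%). Ptprc, which encodes CD45, stood at 0.73, 0.599 and 0.91 CPM in p21 libraries, 0.23, 0.44 and 0.291 CPM in p16 libraries and 0.326, 0.22 and 0.195 CPM in control libraries. All p21 libraries lay above all others, and Ptprc was 2.99-fold (log2 fold change 1.58 ± 0.33 SE, adjusted p = 0.00469) higher in p21 than in control cells and 2.31-fold higher than in p16 cells (adjusted p = 0.0414). Cd53, a tetraspanin of leukocytes, stood at 0.923, 0.657 and 2.14 CPM in p21 libraries, 0.393, 0.367 and 0.829 CPM in p16 libraries and 0.235, 0.398 and 0.349 CPM in control libraries. Its p21 libraries lay above the control libraries but overlapped with p16, and it was 3.75-fold higher than in control cells (adjusted p = 0.0131). Ms4a7, a membrane protein of the MS4A family, stood at 0.303, 0.497 and 0.455 CPM in p21 libraries, 0.0983, 0.0733 and 0.116 CPM in p16 libraries and 0, 0.302 and 0.0837 CPM in control libraries and did not pass against control (adjusted p = 0.0995). The surface glycoprotein gene Cd52, at 16, 6 and 6 counts in p21, 0, 6 and 2 in p16 and 4, 6 and 4 in control libraries, was not tested. Of the actin-binding proteins of leukocytes, Lcp1 (L-plastin) stood at 2.46, 3.75 and 5.83 CPM in p21 libraries, 1.56, 1.66 and 2.22 CPM in p16 libraries and 1.36, 1.55 and 1.72 CPM in control libraries. Its p21 libraries lay above all others, and it was 2.6-fold (log2 fold change 1.38 ± 0.29 SE, adjusted p = 0.00446) higher in p21 than in control cells. Coro1a (coronin 1A) stood at 0.95, 1.53 and 1.33 CPM in p21 libraries, 0.475, 0.411 and 0.625 CPM in p16 libraries and 0.952, 0.756 and 0.572 CPM in control libraries, which passed against p16 (2.51-fold, adjusted p = 0.0165) but not against control cells (1.67-fold, adjusted p = 0.0545). Aif1, which encodes the microglial and macrophage stain IBA1, had at most 4 counts in a library.

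Per length, as RPKM (CPM divided by the kilobases of exon), Lyz2 led in each group, at 13.2 ± 4.20 in p21, 3.13 ± 0.765 in p16 and 2.95 ± 0.575 in control cells. Gpnmb (3.60 ± 0.795) and Cd68 (2.08 ± 0.520) came next in p21 cells, followed by C1qa (1.80 ± 0.539), Cd14 (1.55 ± 0.226), C1qb (1.52 ± 0.611) and Tyrobp (1.06 ± 0.158). The means of Cd68 and C1qa differed by less than either SD, as did those of C1qa and C1qb. In control cells the order after Lyz2 was Cd68 (1.81 ± 0.103), Cd14 (1.64 ± 0.227), Gpnmb (0.835 ± 0.207) and C1qa (0.633 ± 0.281). Cd68 and Cd14, which were not called in any comparison, were thus among the most abundant members per length in control cells.

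Many members had the same highest library in p21 and in p16 cells. Among the 31 tested members, p21 replicate 3 was the highest p21 library for 23 and p21 replicate 1 the lowest for 25, against 38.7% and 28.4% of all genes tested. In p16 cells replicate 3 was the highest for 23 and replicate 1 the lowest for 19, against 38.8% and 30.04% of all genes tested. In control cells the highest library was replicate 3 for 13, replicate 2 for 10 and replicate 1 for 8. The count of called members for p21 over control was 15 without p21 replicate 3 and 23 without p21 replicate 1. From replicates 1 and 2 of each group alone it was 15, with 1 for p16 over control and 17 for p21 over p16.

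Calls of single genes rested on single libraries and on settings in part. For p21 over control, 12 of the 21 held under all 14 alternatives: Lyz2, Gpnmb, Ptprc, Mrc1, Tyrobp, Laptm5, C1qa, Cd53, Mpeg1, Trem2, Cd84 and Lcp1. Fcgr2b held under the 13 in which it was tested, and had too few counts once they were halved. Trem2 and Fcgr2b passed the filter only through the p21 libraries, so that they held is a description. Without p21 replicate 3 the adjusted p was 0.12 for Fcgr3, 0.0726 for C1qb, 0.153 for C1qc, 0.137 for Csf1r, 0.152 for Clec4d and 0.0711 for Siglec1. Without control replicate 1 the same genes had 0.0715, 0.0587, 0.123, 0.099, 0.0843 and 0.064. Leaving out control replicate 2 ended the calls of C1qb, C1qc, Csf1r, Clec4d and Siglec1 (0.0575, 0.146, 0.0838, 0.0676 and 0.0775), control replicate 3 those of Fcgr3, Csf1r and Clec4d (0.0537, 0.0762 and 0.0982), and p21 replicate 2 those of Fcgr3, C1qc, Csf1r, Clec4d and Siglec1 (0.0533, 0.107, 0.115, 0.057 and 0.0547). From replicates 1 and 2 alone Fcgr3 (0.115), Csf1r (0.141), Clec4d (0.23), Siglec1 (0.051), Msr1 (0.0661) and Cx3cr1 (0.0566) were not called. With library size alone C1qc (0.0535) and Csf1r (0.0507) were not called, and with only the p21 and control groups Fcgr3 (0.0563), C1qc (0.0559) and Clec4d (0.0519) were not. Of the 10 members not called, 3 were called under some alternative. Coro1a was by DESeq2 (0.0437), without control replicate 1 (0.0357) or p21 replicate 1 (0.0389) and with counts halved (0.046). Ms4a7 was with the replicate block (0.0329) or without control replicate 2 (0.0138), and Ccr1 without p21 replicate 1 (0.0356). Ms4a7 and Ccr1 passed the filter only through the p21 libraries, so their calls are a description.

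For p21 over p16, 20 members were called, 19 of them also higher than in control cells, and Coro1a besides. The 3 p21 libraries lay above all 6 others for 22 of the 31 tested, against 14.3% of all genes tested. Above the p16 libraries alone they lay for 26, against a background of 17.5%, and above the control libraries alone for 24, against 24%. Fcgr2b, Trem2, Siglec1, Ms4a7 and Ccr1 are in all 3 of these counts. They passed the filter on low counts only through the p21 libraries, so the counts are a description. The count of members called over p16 was 9 without p16 replicate 1 and 9 without p16 replicate 2. Lyz2, Gpnmb, Mrc1, Msr1, Laptm5 and Mpeg1 held under all 14 alternatives. Fcgr2b held under the 12 that gave it an adjusted p. It passed the filter only through the p21 libraries, so that it held is a description. Each of the other 13 lost its call in at least 1, at adjusted p values of up to 0.173 for Ptprc. With the replicate block 26 were called, the 6 more being Fcgr3, Cd53 (adjusted p = 0.0238), Ms4a7 (0.0446), Cybb (0.0255), Spi1 and Pld4 (0.0387). In p16 against control cells 5 members had every p16 library below every control library (Mrc1, Msr1, Siglec1, Clec4d and Cd68), against a background of 15.1%, with none called. Only Gpnmb had every p16 library above every control library, against a background of 13.6%.

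Further genes of the macrophage programme, from a list of 51 besides the 37, were read in the same fit. Of 30 that had enough counts, 10 were higher in p21 than in control cells (background 19.3%) and none lower (0 at an unadjusted p under 0.05 as well, and 0 by DESeq2). In p21 against p16 cells 3 were higher (background 6.19%), with 14 under the replicate block, 9 by DESeq2, 1 without p16 replicate 1, 2 without p21 replicate 1 or p16 replicate 2 and 6 without p16 replicate 3. Adgre1, which encodes the macrophage antigen F4/80 and is listed under its older symbol Emr1, stood at 0.661, 0.614 and 1.33 CPM in p21 libraries, 0.147, 0.381 and 0.552 CPM in p16 libraries and 0.143, 0.192 and 0.307 CPM in control libraries. The p21 libraries lay above all others, and Adgre1 was 4.01-fold (log2 fold change 2 ± 0.51 SE, adjusted p = 0.0115) higher in p21 than in control cells. The integrin gene Itgb2, the beta chain of the leukocyte integrins, was 2.37-fold (log2 fold change 1.24 ± 0.30 SE, adjusted p = 0.0086) higher in p21 than in control cells. Clec4n, a C-type lectin gene, had 20, 18 and 18 counts in p21, 2, 4 and 0 in p16 and 0, 2 and 0 in control libraries. It was over the filter in the p21 libraries alone, so no test is given for it. Clec4n is among the 10 called over control and the 3 called over p16 cells, as a description. Lyve1, a hyaluronan receptor of lymphatic vessels and some macrophages, was 4.02-fold higher (adjusted p = 0.00521). Marco and Timd4, receptors of particular tissue macrophages, had no read in any library.

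Most markers of other leukocytes had few reads or none. The 11 neutrophil markers in the table summed to 0.463 ± 0.0649 CPM in p21, 0.476 ± 0.148 CPM in p16 and 0.673 ± 0.0763 CPM in control cells, with S100a9, Retnlg and Ngp at 0 in every library. The most abundant of them, the chemokine receptor gene Cxcr2, stood at 0.317, 0.307 and 0.193 CPM in p21 libraries, 0.377, 0.235 and 0.233 CPM in p16 libraries and 0.43, 0.563 and 0.335 CPM in control libraries and was not called (adjusted p = 0.136). The 13 T cell and NK cell markers summed to 0.380 to 0.805 CPM in p21, 0.279 to 0.785 CPM in p16 and 0.274 to 0.809 CPM in control libraries, and 7 of them, Cd3d, Cd3e and Cd3g included, had no read. The kinase gene Lck led that list at 0.193, 0.102 and 0.28 CPM in p21 libraries, 0.197, 0.205 and 0.436 CPM in p16 libraries and 0.17, 0.398 and 0.683 CPM in control libraries (adjusted p = 0.146; 0.0449, lower, without control replicate 1). Lck and Cxcr2 averaged 0.417 and 0.443 CPM in control cells, above the 0.247 CPM of Ptprc. The T cell and NK cell genes Cd28, Zap70 and Klrb1c had too few counts to be tested in the main fit. In each, every p21 library lay above every control library, as in 24% of all genes tested. They were picked after their values were seen. By DESeq2, and also with no filter on low counts, 2 of the 13 were called higher in p21 than in control cells. Cd28, a co-stimulatory receptor, had 6, 7 and 14 counts in p21, 4, 8 and 6 in p16 and 2, 0 and 3 in control libraries. Zap70, a kinase of the T cell receptor, had 6, 7 and 6 counts in p21, 0, 0 and 12 in p16 and 0, 2 and 0 in control libraries. Klrb1c, the NK cell receptor NK1.1, had 6, 3 and 7 counts in p21, 0, 0 and 4 in p16 and 0 in all control libraries. The list summed was 1.148 times as high in p21 as in control cells, with overlapping libraries. The 7 B cell markers summed to at most 0.245 CPM in p21, 0.279 CPM in p16 and 0.265 CPM in control libraries, with Cd79b at 0 and Cd79a, a chain of the B cell receptor, at up to 14 counts. Of 9 mast cell and basophil markers only Kit, which other cells also express, was tested, and it was 3.96-fold (log2 fold change -1.98 ± 0.47 SE, adjusted p = 0.00839) lower in p21 than in control cells. Of 9 erythroid and megakaryocyte markers 6 had no read, among them the globin genes, and the integrin gene Itga2b was 1.48-fold lower in p21 than in control cells (adjusted p = 0.0229; 0.0896 without control replicate 2, 0.0527 without control replicate 3 and 0.0865 without p21 replicate 2). Of 10 markers of osteoclasts, a cell type related to macrophages, 7 were tested, and 4 were higher (background 19.3%) and 1 was lower (20.7%) in p21 than in control cells. The 4 became 2 without control replicate 1, p21 replicate 1 or p21 replicate 3, Ctsk and Mmp9 being those lost. They were the proton pump subunit gene Atp6v0d2 (4.77-fold higher, adjusted p = 0.00869), the receptor gene Oscar (2.29-fold higher, adjusted p = 0.00929) and the protease gene Ctsk (1.32-fold higher, adjusted p = 0.021), then Mmp9, while the transcription factor gene Nfatc1 was 1.57-fold lower (adjusted p = 0.000686). Calcr and Dcstamp, which define the type, had 0 and 1 counts over all libraries. The part of other leukocytes in the levels of the 37 genes was not tested.

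**Figure D4:**
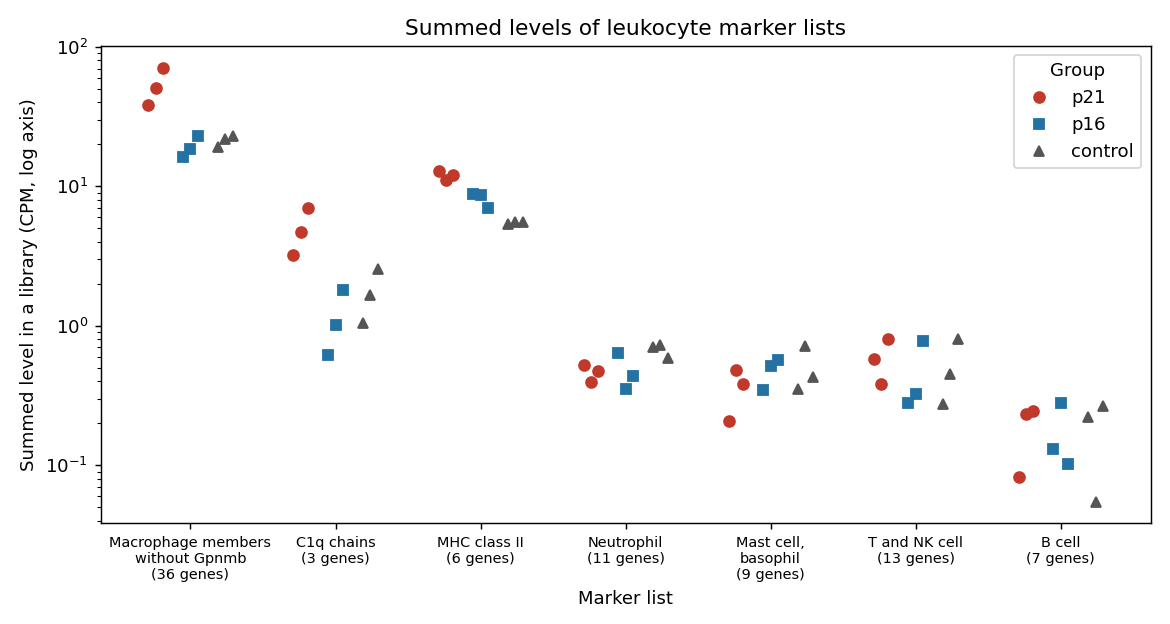
Summed CPM of marker lists in each library on a log axis, by group. The macrophage markers without Gpnmb lie between 38.0 and 71.0 CPM in p21 libraries, 16.1 and 22.8 CPM in p16 libraries and 19.0 and 23.1 CPM in control libraries, while the lists of neutrophils, mast cells, T and NK cells and B cells stay under 1 CPM in every library.

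Activated macrophages and dendritic cells use MHC class II to present antigen, and 4 of its 6 listed genes were tested. In p21 against control cells 2 were called higher (background 19.3%) and none lower, and all 4 had a positive log2 fold change. H2-DMa, a chaperone of peptide loading, stood at 6.53, 6.25 and 5.87 CPM in p21 libraries, 2.92, 3.33 and 2.52 CPM in p16 libraries and 1.86, 1.79 and 2.01 CPM in control libraries, with no overlap between the groups. It was 3.29-fold (log2 fold change 1.72 ± 0.13 SE, adjusted p = 1.88e-05) higher in p21 and 1.55-fold (log2 fold change 0.63 ± 0.13 SE, adjusted p = 0.0222) higher in p16 than in control cells. Its partner H2-DMb1 was 2.78-fold higher in p21 (adjusted p = 0.000849) and 2.1-fold higher in p16 cells (adjusted p = 0.0247). Both p16 calls were lost without control replicate 2 (0.0754 for H2-DMa and 0.0792 for H2-DMb1), p16 replicate 1 (0.0677 and 0.0836) or p16 replicate 2 (0.0893 and 0.0694). That of H2-DMb1 was also lost without control replicate 3 (0.0524) or p16 replicate 3 (0.0666). The presenting chains H2-Ab1 (adjusted p = 0.826) and H2-Eb1 (adjusted p = 0.091) did not pass in p21 cells, and H2-Aa had at most 4, 6 and 2 counts in a p21, p16 and control library.

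Of 16 ligands that macrophages depend on or follow, 11 had enough counts to be tested. Csf1, the growth factor of macrophages, stood at 1639, 1780 and 1115 CPM in p21 libraries, 1302, 1412 and 927 CPM in p16 libraries and 1240, 918 and 702 CPM in control libraries. It was 1.58-fold higher in p21 than in control cells (adjusted p = 0.0479), with overlapping libraries. The call was lost without control replicate 2 (0.12), control replicate 3 (0.131), p21 replicate 1 (0.127) or p21 replicate 2 (0.145), and by DESeq2 (0.0512). Il34, the other ligand of CSF1R, stood at 7.89, 8.38 and 7.65 CPM in p21 libraries, 6.75, 6.63 and 5.67 CPM in p16 libraries and 5.05, 4.84 and 5.55 CPM in control libraries, without overlap between any of the groups, and was 1.55-fold higher in p21 than in control cells (adjusted p = 0.000983). Of the 11, 4 were higher (background 19.3%) and 1, Hmgb1, lower (20.7%) in p21 than in control cells (1.82-fold, adjusted p = 2.12e-05). The monocyte attractants Ccl2 (1.3-fold, adjusted p = 0.00128) and Ccl7 (1.83-fold, adjusted p = 0.004) were the others that were higher. Csf1 is given because it is the main ligand, chosen after its values were seen. In p16 cells none was higher than in control cells by the main edgeR fit. That fit gave 2 at an unadjusted p under 0.05, while the replicate block called 2 and DESeq2 called 0. In the main fit Hmgb1 alone was lower, a call that was lost without p16 replicate 2 (adjusted p = 0.0629).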

How the data were processed

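RNA of 9 fibroblast samples was made into TruSeq v2 libraries, per the labels' protocols. The authors deposited 1 table of raw read counts per gene. TopHat2 2.0.14, Bowtie2 2.2.6, Subread, featureCounts 1.4.6 and mm10 are named per the submitters' processing notes; for annotation, strand setting and reads with several matches the entry is: not given in the sources used here. From the counts, genes passing filterByExpr (minimum count 10) were fitted in edgeR 4.0.16 (R 4.3.3) with TMM scaling, 1 mean per group over all 9 libraries, the quasi-likelihood F test and Benjamini-Hochberg adjustment over 14572 genes. The script was tested on simulated data. The members, the lists of genes and the rule for naming (every member; of each other list at most 4 called genes by lowest adjusted p, or the most abundant where none was called) were chosen with earlier results of these data known; Adgre1, Csf1, Cd28, Zap70, Klrb1c and genes at 0 were named besides, after their values were seen, and some genes of these lists are not reported here. Library totals limit precision: 3 counts equal 0.0391 to 0.0525 CPM. Alternatives were DESeq2 1.42.0, other scalings, no filter, a replicate block, fewer groups and leaving out libraries; halving the counts was added after seeing the data. Gene positions are from GENCODE M21 (GRCm38); words of 50 bases were compared between transcripts. Replicate numbers come from the titles, which do not say what a number marks. The correlation of same-numbered deviations was 0.16, 0.29 and 0.48 between p21 and p16, all over the limit of 0.1 that was set for pairing. It was 0.25, 0.11 and 0.55 between p16 and control, also over the limit. Between p21 and control it was 0.18, 0.03 and 0.49, of which 0.03 was under it. The main fit held no replicate term in any comparison, so its adjusted p values leave such a pairing out. The replicate block is the alternative that takes it in.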

Additional observations from a re-analysis of the deposited data

How the results depend on the processing

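Of the macrophage markers, 15 to 23 were called higher in p21 than in control cells when 1 library was left out, and 18 to 22 under DESeq2, library size alone, no filter, the replicate block or only the groups compared. For p16 over control, 0 or 1 was called when a library was left out, and for p21 over p16, 9 to 19. With the replicate block, 22, 1 and 26 were called in these 3 comparisons. The numbers paired p21 with control only in part. The correlation of same-numbered deviations was 0.18 for replicate 1 and 0.49 for replicate 3, over the limit set for pairing. For replicate 2 it was 0.03, under that limit. Counting error limits members near 10 counts.

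Over the whole table, p16 over control gave 520 higher and 532 lower genes, against 935 and 885 with DESeq2, 1252 and 1221 with the replicate block, 340 and 253 from replicates 1 and 2, 299 and 256 from only the 2 groups, and 156 to 488 and 66 to 385 when a library was left out. p21 over p16 gave 902 and 968, against 1715 and 1781 with the block and 284 to 839 and 316 to 951 when a library was left out. The cause was not tested.

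Signs of log2 fold changes of named genes turned only where they were not called. From replicates 1 and 2, Cd68 was at -0.064 for p21 minus control, Tyrobp, Trem2 and Cd84 at 0.273, -0.321 and -0.217 for p16 minus control and Cd14 at -0.168 for p21 minus p16. Trem2 was at -0.032 with the block and Cd14 at -0.001 with library size alone. H2-Ab1 was at -0.072 for p21 minus control from replicates 1 and 2 and ran from -0.053 to 0.212 when a library was left out. When a library was left out, Cd68 ran from -0.022 to 0.319 and Cd14 from -0.171 to 0.039 for p21 minus control, and Cd14 from -0.127 to 0.229 for p21 minus p16. For p16 minus control the ranges were -0.046 to 0.278 for Lyz2, -0.313 to 0.043 for Cd14, -0.262 to 0.377 for Fcgr3, -1.707 to 0.334 for Fcer1g, -0.632 to 0.130 for Tyrobp, -0.735 to 0.028 for Laptm5, -1.178 to 0.050 for C1qc, -0.995 to 1.204 for Ms4a7, -0.458 to 0.314 for Trem2 and -0.155 to 0.295 for Cd84.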
